A study of Mus musculus with 2 samples.

Results

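Among 25454 cells kept from 2 libraries, 56 carried Lyz2 with Vcan or Ccl17 and had few or no UMIs of the genes used to leave out other cells. They were chosen by raw counts of unique molecular identifiers (UMIs, each standing for 1 captured transcript): at least 500 detected genes, at most 10% mitochondrially coded UMIs, Lyz2 of at least 5, Csf3r and Cd79a at 0, Saa3, Cfb, Slc7a2 and Fstl1 together at most 2, Ear2 and Fabp4 together at most 2, and Vcan and Ccl17 together at least 1. The library labelled WTKL held 41 of them and the library labelled LYZKL held 15. Of the 56, 49 carried Vcan without Ccl17 (35 in WTKL and 14 in LYZKL), and 7 carried Ccl17 (6 and 1), of which 1 WTKL cell also had a Vcan UMI.

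Both libraries were droplet 3′ single-cell RNA libraries of lung tumour cells that had been sorted as CD4 and CD8 positive and are labelled T cells, so myeloid cells are present against the label. In both arms, KrasLSL-G12D/+Lkb1fl/fl hosts were lethally irradiated, received bone marrow, and were given adenoviral Cre (Ad-Cre) through the nose 8 weeks before the label's time point. The marrow was Tmem173fl/fl in WTKL and Tmem173fl/fl;Lyz2-Cre in LYZKL, so both arms carried the floxed Tmem173 (STING) alleles and irradiation, and the arms differed by a Cre driven from Lyz2, a gene that was itself used in the selection. Tamoxifen is listed among the treatments of WTKL only. The number of mice behind each library is not stated. With 1 library per group no difference between the arms can be tested: no p-value is given, and all intervals are 95% intervals of counting error only, which leave out the spread between cells and between mice.

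Classical monocytes leave the bone marrow through the chemokine receptor CCR2, enter inflamed tissue and tumours, and there become macrophages or cells that present antigen. Versican, the product of Vcan, is a matrix proteoglycan that fresh monocytes transcribe, together with the coagulation factor XIII subunit F13a1, fibronectin (Fn1) and the chitinase-like Chil3. CCL17 is a chemokine that attracts T cells through CCR4 and is made by some dendritic cells and monocyte-derived cells. Interferon gamma, a T cell and NK cell product, makes myeloid cells transcribe the chemokines Cxcl9 and Cxcl10, guanylate-binding proteins such as Gbp2, and the high-affinity IgG receptor Fcgr1.

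The WTKL matrix held 12204 barcodes and the LYZKL matrix 13607, where the labels state 6609 and 7202 cells. The kept cells had a median of 4840 and 5327 UMIs. The gated cells were deeper than that, with medians of 9906 (3184 to 33185) and 9668 (3045 to 19892) UMIs, and the sums over them were 456471 and 163919 UMIs. The libraries shared 100 barcode sequences, and 1 gated barcode also occurred in the other library. Values below are counts per 1e6 UMIs (CPM) of the summed gated cells of a library unless a count is given.

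The cells made up a smaller share of LYZKL. They were 0.342% of 12003 kept cells in WTKL (0.245% to 0.463%, exact Clopper-Pearson) and 0.112% of 13451 in LYZKL (0.0624% to 0.184%), a ratio of 0.326 (Katz interval 0.181 to 0.589). Among cells with at least 5 Lyz2 UMIs the shares were 3.81% of 1076 and 1.12% of 1342. The Vcan-only cells were 2.80-fold lower in LYZKL, with an interval of the ratio of 0.192 to 0.663. For the Ccl17 cells the ratio was 0.149, and its interval, 0.0179 to 1.24, includes 1. A sort for T cells set which myeloid cells entered either library, so these are shares of the sorted cells and not of the tumour.

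The limit on Saa3, Cfb, Slc7a2 and Fstl1 removed most cells that had met the criteria before it. Of the cells that had passed the limits on Vcan or Ccl17, Lyz2, Csf3r and Cd79a, that limit took 167 to 45 in WTKL and 123 to 18 in LYZKL. Just outside it, with 3 to 5 UMIs of these genes, lay 18 and 7 cells, and another 79 and 87 cells had over 10. RNA free in the droplets moves with the same genes: in cells with at least 2 Cd3e UMIs and no Lyz2, the 4 genes averaged 0.879 UMIs in WTKL and 1.55 in LYZKL, and 4.74% and 7.28% of these T cells would have missed the limit. Among T cells of 8000 to 12000 UMIs, close to the depth of the gated cells, 7.71% and 9.19% would have missed it. With the limit raised to 10 UMIs, 70 and 26 cells were selected, and the log2 ratio of the shares was -1.59 against -1.61. At the lower edge of the Vcan and Ccl17 criterion, 14 WTKL cells but 1 LYZKL cell had exactly 1 UMI, and 100 and 90 otherwise qualifying cells had none. With at least 2 UMIs asked for, 27 and 14 cells remained and the log2 ratio was -1.11. Free Vcan was low, with a UMI in 0.381% and 0.271% of the same T cells, and Ccl17 was found in 0.905% and 0.396%.

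As a group, the Vcan-only cells carried the transcripts of classical monocytes. Their Vcan ran from 1 to 16 UMIs per cell in WTKL (median 3) and from 1 to 11 in LYZKL (median 5), values that the selection used. Ccr2, which was not used, was found in 35 of 35 and 14 of 14 of them, with medians of 6 and 9 UMIs. Fn1 was found in 34 of 35 and 14 of 14, and F13a1 in 30 of 35 and 12 of 14. Chil3 had a median of 23 UMIs in WTKL and 42.5 in LYZKL, with highest cells of 129 and 147. Ly6c2, a surface marker of classical monocytes, was sparse, with a median of 1 UMI in both libraries, and Adgre1 (F4/80) had medians of 1 and 0.5. Of dendritic cell genes, Zbtb46 and Mgl2 had no UMI in any of the 49 cells, Itgax was found in 2 of 35 and 3 of 14, Flt3 in 6 and 3 and Clec10a in 4 and 3. The whole list of 15 markers of type 2 conventional and monocyte-derived dendritic cells had UMIs in 34 of 35 and 14 of 14, with medians of 1207 and 925 CPM of the cell. Apoe, a lipid carrier abundant in macrophages, was present in 33 of 35 and 14 of 14 cells. Other macrophage markers were found in fewer cells. C1qa was found in 4 of 35 and 1 of 14, C1qb in 5 and 2, and Fcgr1 in 9 and 11. The whole list of 13 markers of interstitial or recruited macrophages had medians of 3490 and 4430 CPM of the cell. Single cells stood apart. In WTKL, neutrophil markers reached 57852 CPM of the cell in 1 Vcan-only cell and 84503.5 in another. A further WTKL cell had 1 Vcan and 12 Lyz2 UMIs beside 19 UMIs of 6 T cell genes.

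**Figure D1:**
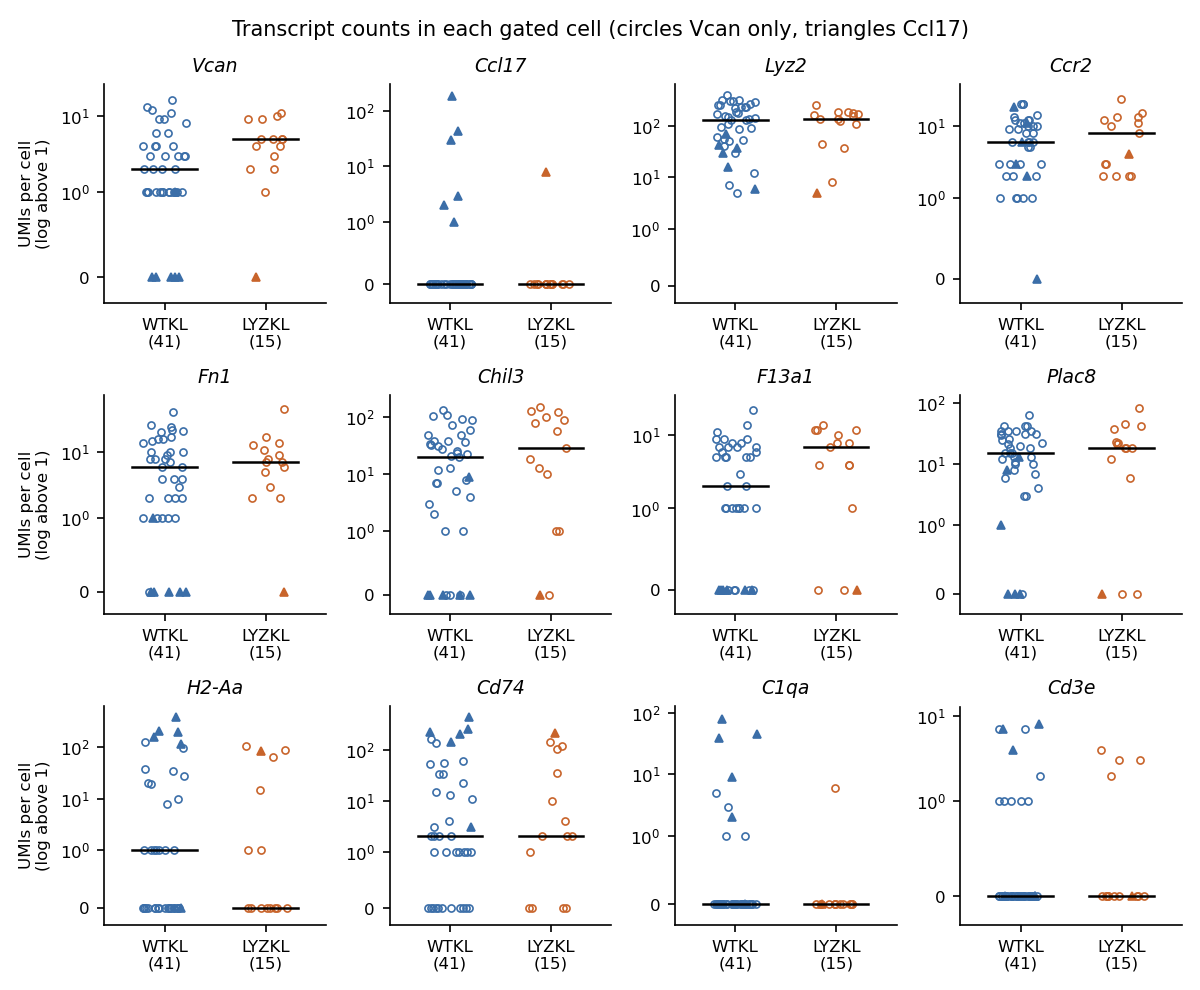
UMIs per cell (vertical axis, linear from 0 to 1 and logarithmic above) of 12 genes in the 41 WTKL and 15 LYZKL gated cells. Circles are Vcan-only cells, triangles cells with a Ccl17 UMI, and black lines medians over all gated cells of a library. Of the 7 triangles, 6 sit at 84 or more UMIs for H2-Aa and 1 at 0, and all 7 sit at 0 for F13a1.

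The Ccl17 cells differed from the Vcan-only cells and among themselves. In WTKL their Ccl17 counts were 1, 2, 3, 30, 43 and 183 UMIs, and the LYZKL cell had 8. None of the 6 WTKL cells had an F13a1 UMI, 1 had Fn1 and 1 had Chil3, and of the 11 classical monocyte markers, all measured, 10 were at least 1.5-fold lower than in the Vcan-only cells of that library (27.4% of 5706 measured genes were so lower). The antigen-presentation genes went the other way. H2-Aa was 11846 CPM in the Ccl17 cells and 1049 CPM in the Vcan-only cells, a log2 ratio of 3.50 (3.33 to 3.67), and H2-Eb1, H2-Ab1 and the invariant chain Cd74 had log2 ratios of 4.54, 3.90 and 3.08. In total 12 of 12 measured class II genes were higher, 10 of them by 1.5-fold or more, where 27.2% of all measured genes were. With the interval also clear of 1, the shares of all genes were 7.52% higher and 7.4% lower.

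The single LYZKL Ccl17 cell shared this pattern in part. It held 84 H2-Aa and 212 Cd74 UMIs and no Chil3, Plac8, F13a1 or Fn1. It differed from the WTKL cells in C1qa, the complement subunit typical of tissue macrophages, which was 1965 CPM in the WTKL Ccl17 cells (5 of 6 with a UMI) and 27.2 CPM in the Vcan-only cells, and at 0 in the LYZKL cell. Mgl2, a lectin of macrophages and dendritic cells, was found in 4 of the 6 WTKL cells and not in the LYZKL cell, and Itgax (CD11c) in 4 of 6 and in the LYZKL cell. Dendritic cell genes were mixed. Zbtb46, Ccl22, Fscn1 and Cd209a had no UMI in any of the 7, and Flt3 was found in 2. Clec10a had 6, 2 and 4 UMIs in WTKL cells and none in the LYZKL cell. The marker list of type 2 conventional and monocyte-derived dendritic cells had 6 of 10 measured members higher and 4 lower in WTKL. By 1.5-fold or more 5 were higher and 4 lower, with a median log2 ratio of 0.55. The marker list of mature dendritic cells had 7 of 7 measured members higher in WTKL, with a median log2 ratio of 1.85. With markers going both ways, the name dendritic cell is not used for the Ccl17 cells. Of the 6 WTKL cells, 3 also had Cd3e, at 4, 7 and 8 UMIs. That with 4 had 1 Ccl17 UMI and no H2-Aa, with class II at 2571 CPM of the cell and T cell markers at 3490. The deepest, with 28996 UMIs, held 183 of the 262 Ccl17 UMIs, and had NK cell markers at 7139 CPM and cell cycle genes at 10174 CPM. Beyond class II, the anti-apoptotic Bcl2a1b and Bcl2a1d, the tetraspanin Cd9, the class II loaders H2-DMa and H2-DMb1, the galectin Lgals1, Ptms and the protease inhibitor Cst3 were higher in the Ccl17 cells of both libraries. Cebpb, a transcription factor of monocytes, Plac8, Samhd1, Nr4a1, Tpd52, the leukotriene pathway gene Alox5ap, Gda, Ifitm3, S100a8 and Ms4a6c were lower in both. Genes were ranked for this naming by the smaller of the 2 ratios, and the LYZKL ratio rests on 7231 UMIs of 1 cell.

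**Figure D2:**
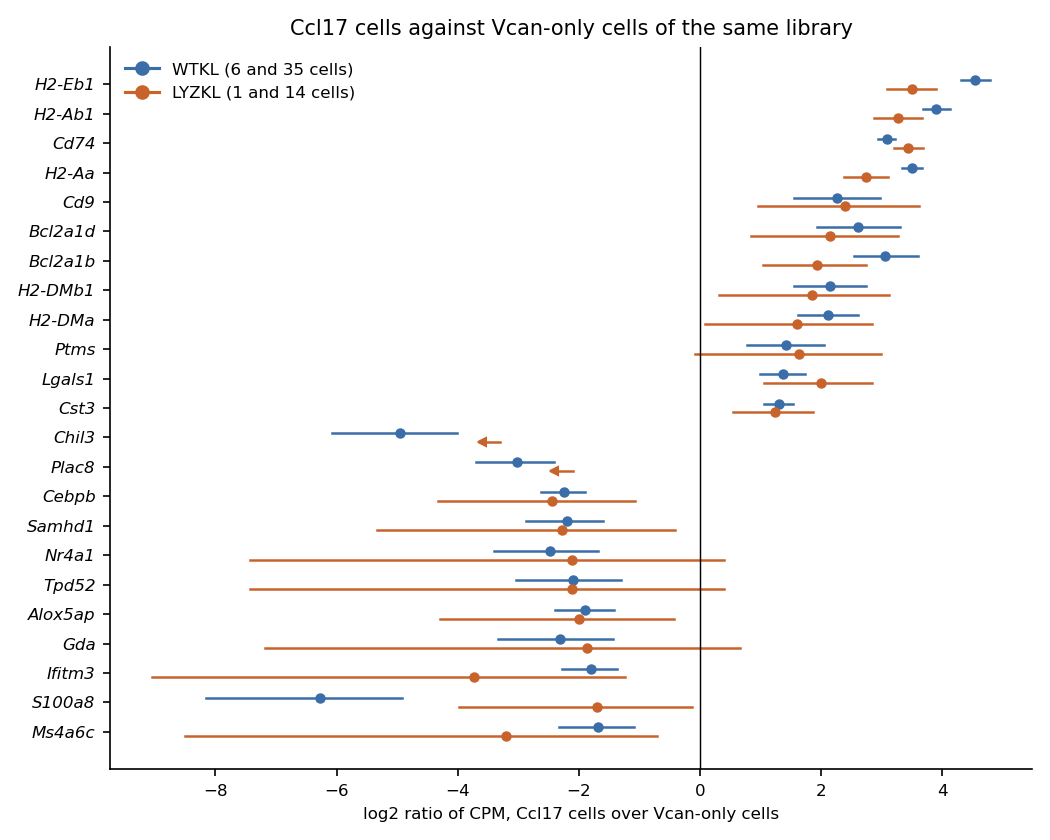
Log2 ratio of CPM in Ccl17 cells over Vcan-only cells of the same library (horizontal axis) for 23 genes named for this comparison, with 95% counting intervals and arrows where the LYZKL cell had no UMI (ratio against a floor of 3 counts). Class II genes lie between 2.74 and 4.54 for H2-Aa, H2-Ab1, H2-Eb1 and Cd74, and Chil3 at -4.95 in WTKL.

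Between the libraries, genes of the interferon gamma response were higher in LYZKL. Of 26 measured members (at least 20 CPM on the mean of the libraries) 23 were higher, 18 of them by 1.5-fold or more and all 18 with the counting interval clear of 1. Their median log2 ratio was 1.41, beside 0.03 for the 5673 measured genes, of which 19.3% were higher and 17.7% lower by 1.5-fold or more (5.38% and 3.77% with the interval clear of 1). In each cell, the list's summed level had a median of 1431 CPM of the cell in WTKL (440 to 6627) and 4033 in LYZKL (328 to 21872). The groups overlapped: 12 of 15 LYZKL cells lay above the WTKL median, and 4 lay above the highest WTKL cell. Those 4 held 272, 232, 204 and 115 UMIs of the list, and no other LYZKL cell held more than 90. The cells with 272 and 232 also carried Cd3e, and the fullest gave 22.9% of the LYZKL UMIs of the list. The members share these cells, so their clear intervals are not separate results. The list's median was 0.32 when cells were thinned to 3000 UMIs before the selection, and 0.71 with the limit on Saa3, Cfb, Slc7a2 and Fstl1 at 10 UMIs. The type I interferon response had 18 of 23 measured members higher, 16 of them by 1.5-fold or more, with a median log2 ratio of 1.20.

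T cell transcripts moved with part of this. A Cd3e UMI, taken as a sign that a T cell shared the droplet, was found in 11 of 41 WTKL cells (26.8%) and 4 of 15 LYZKL cells (26.7%), with counts of 2 or more in 6 and 4. The 12 T cell markers, all measured, summed to 1113 and 1129 CPM, and from 0 to 5478 CPM per cell in WTKL and 0 to 3368 in LYZKL. The 4 LYZKL cells with Cd3e had type I interferon list levels of 2687 to 7604 CPM (median 6204) and the 11 without it 327 to 6755 (median 1182). In WTKL the medians were 1552 with Cd3e and 1084 without. In the cells without Cd3e (30 and 11), the interferon gamma list still had 16 of 19 measured members higher, 12 by 1.5-fold or more but 6 with the interval clear of 1, and a median log2 ratio of 1.02. Its level per LYZKL cell had a median of 9702 CPM with Cd3e and 2978 without, and in WTKL of 2207 and 1377. The type I list had 14 of 20 higher, 7 by 1.5-fold or more, and a median of 0.28. Of 5485 genes measured there, 25% were higher and 20.4% lower by 1.5-fold or more. Cells without Cd3e still held other T cell markers, 5 of 12 measured, which summed to 147 and 322 CPM. The part of T cell doublets in the result was not tested.

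**Figure D3:**
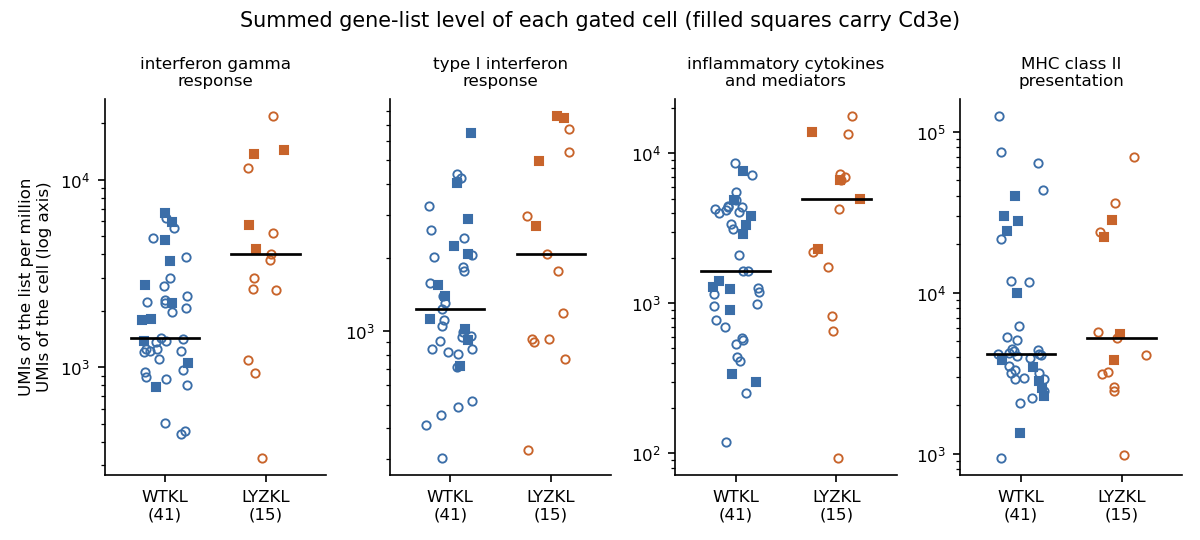
Summed UMIs of 4 gene lists as CPM of each gated cell (log axis), for 41 WTKL and 15 LYZKL cells. Filled squares carry a Cd3e UMI, open circles do not, and black lines are medians. For the interferon gamma list the LYZKL median is 4033 and the WTKL median 1431, and for the type I list the 4 LYZKL squares lie at 2687 or above.

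Single genes differed in how they depended on those cells. Cxcl10, a ligand of the T cell receptor CXCR3, was 191 CPM in WTKL (15 of 41 cells) and 2160 CPM in LYZKL (10 of 15 cells), a log2 ratio of 3.50 (3.16 to 3.86). The fullest LYZKL cell gave 37.9% of its UMIs, and without Cd3e cells the log2 ratio was 3.97. Of the 242 UMIs in the 11 LYZKL cells without Cd3e, 134 lay in that cell and 71 in another, and 5 cells had none. The Cxcl10 ratio of all selected cells was far smaller when the selection took other cells: 0.51 when every cell was first thinned to 3000 UMIs, which chose 53 and 24 cells, and 0.62 with the limit on Saa3, Cfb, Slc7a2 and Fstl1 at 10 UMIs. Fcgr1 was 52.6 CPM in WTKL (13 of 41 cells) and 336 CPM in LYZKL (12 of 15), a log2 ratio of 2.67 (1.96 to 3.43), and 2.19 without Cd3e cells. Cxcl9, the other CXCR3 ligand, had 1 UMI in WTKL and 105 in LYZKL, from 4 cells, a log2 ratio of 8.19 with a counting interval of 5.68 to 13.51. All but 2 of the 105 UMIs lay in cells with Cd3e, and the ratio without them rests on 1 and 2 UMIs (log2 2.60, -1.66 to 8.49). Gbp2 was 74.5 and 622 CPM, a log2 ratio of 3.06 (2.49 to 3.67), which became -0.68 after thinning to 3000 UMIs. In LYZKL 94 of its 102 UMIs likewise lay in cells with Cd3e. The ligand of PD-1, Cd274, was 67.9 and 220 CPM, a log2 ratio of 1.69 (0.96 to 2.43), and 1.16 (-0.11 to 2.38) without Cd3e cells. Ifi204, a DNA-binding interferon-inducible gene, was 123 and 403 CPM, with 25 of 41 and 10 of 15 cells, and log2 ratios of 1.71 and, without Cd3e cells, 1.24. Members that did not reach 1.5-fold included Irf1 (386 and 433 CPM) and Socs1 (123 and 116 CPM).

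The promoters of the 24 genes named for the comparison of the libraries were searched for the core letters of the interferon-stimulated response element, GAAANNGAAA, on both strands (TTTCNNTTTC on the other). RefSeq promoters (GRCm38.p6, 250 bases before to 50 after the start, 300 in all) were matched for 9 of the 12 higher and 9 of the 12 lower genes. The core was found in 2 of 9 higher genes, Cxcl10 and Gbp2, in 1 of 9 lower genes, Gzma, and in 3.44% of 32851 promoters. The Cxcl10 and Gbp2 promoters are shown because these genes had large differences of opposite dependence on the Cd3e cells. Capitals mark the core, which starts at -213 in Cxcl10 (minus strand of chr5:92348840-92349139) and at -59 in Gbp2 (plus strand of chr3:142620413-142620712), and a match is only a description of the letters.
Cxcl10: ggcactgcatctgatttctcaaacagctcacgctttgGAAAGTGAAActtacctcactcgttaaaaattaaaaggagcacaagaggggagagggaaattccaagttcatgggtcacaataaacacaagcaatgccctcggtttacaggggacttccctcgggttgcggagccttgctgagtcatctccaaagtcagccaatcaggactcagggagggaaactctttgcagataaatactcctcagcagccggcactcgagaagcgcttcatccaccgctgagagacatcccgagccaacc
Gbp2: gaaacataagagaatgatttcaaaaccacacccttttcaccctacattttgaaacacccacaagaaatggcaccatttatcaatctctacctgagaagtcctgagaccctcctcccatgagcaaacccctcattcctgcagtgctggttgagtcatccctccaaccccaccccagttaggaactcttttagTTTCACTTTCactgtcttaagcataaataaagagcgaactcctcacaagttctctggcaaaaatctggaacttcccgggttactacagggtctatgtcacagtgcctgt

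Some inflammatory and repair genes were higher in LYZKL as well. Il1b, the gene of interleukin 1 beta, was 1871 CPM in WTKL (38 of 41 cells) and 5552 CPM in LYZKL (14 of 15 cells), a log2 ratio of 1.57 (1.43 to 1.71). The median Vcan-only cell held 12 Il1b UMIs in WTKL and 40 in LYZKL, the highest held 67 and 197, and without Cd3e cells the log2 ratio was 1.47, but it was 0.31 after thinning to 3000 UMIs and 0.52 with the limit at 10 UMIs. Tnf was 43.8 and 183 CPM, a log2 ratio of 2.06 (1.20 to 2.96). Of the 10 measured inflammatory cytokines and mediators 7 were higher, 6 by 1.5-fold or more, and of 13 measured genes of alternative activation and repair 10 were higher, 9 of them by 1.5-fold or more, with medians of 0.91 and 0.76. The interval was clear of 1 for 3 and 6 of these, and 19.3% of all measured genes were higher by 1.5-fold or more. Chil3 was 2550 and 4813 CPM, and Tgfb1 was 302 and 494 CPM. Other LYZKL values rested on few cells: Ccl24, an eosinophil attractant, had 1 UMI in WTKL and 101 in LYZKL, 82.2% of them from 1 cell, and 66.1% of the Cxcl2 UMIs (745 and 1909 CPM) came from 1 LYZKL cell. Ms4a6d (153 and 561 CPM), the proteoglycan Sdc4 (171 and 464 CPM), Clic4 (171 and 427 CPM) and Lrg1 (120 and 317 CPM) were found in 8 to 12 of the 15 cells, and Sdc4 had a log2 ratio of -0.13 after thinning. Ctla4, a T cell gene, was 147 and 372 CPM, with 57.4% of the LYZKL UMIs in 1 cell.

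**Figure D4:**
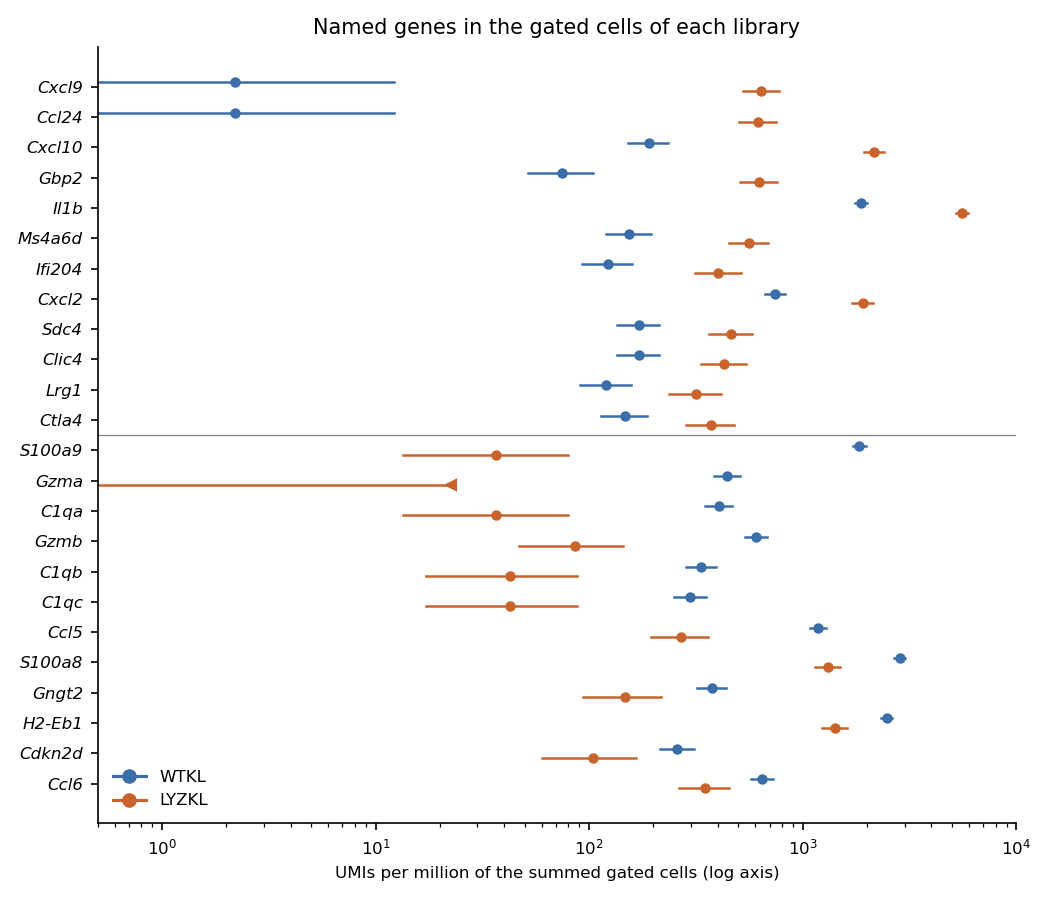
CPM of the summed gated cells (log axis) with exact Poisson intervals for the 24 genes named for the comparison of the libraries, WTKL in blue and LYZKL in orange. The upper 12 were higher and the lower 12 lower in LYZKL, and the arrow marks Gzma, with no UMI in LYZKL, at the upper bound of its interval. Cxcl10 lies at 191 and 2160 and Il1b at 1871 and 5552.

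Several of the genes lower in LYZKL came from few WTKL cells. S100a9, a neutrophil and monocyte alarmin, was 1838 CPM in WTKL and 36.6 CPM in LYZKL, but 1 WTKL cell gave 73.8% of the UMIs. S100a8 was 2839 and 1306 CPM, and 1 WTKL cell gave 53.9%. Without the 3 WTKL cells of at least 100 S100a8 UMIs, S100a8 was the higher in LYZKL, with a log2 ratio of 2.97. The 11 neutrophil markers outside the selection rule, of which 3 were measured, summed to 4903 and 1580 CPM, but per cell the list had a median of 323 CPM in WTKL and 1072 in LYZKL, and 12 of 15 LYZKL cells lay above the WTKL median. Of these markers, Ly6g, Camp, Ngp and Ltf were at 0 in both libraries. Gzma and Gzmb, granzymes of cytotoxic lymphocytes, took 77.2% and 80.8% of their WTKL UMIs from 1 cell, and Gzma, at 443 CPM in WTKL, had no UMI in LYZKL, at least 24.2-fold lower against a floor of 3 counts per library. The chemokine Ccl5 was 1181 and 268 CPM, and 78.7 and 83.2 CPM in cells without Cd3e. C1qa (403 and 36.6 CPM), C1qb (335 and 42.7 CPM) and C1qc (298 and 42.7 CPM) were higher in the Ccl17 than in the Vcan-only cells of WTKL, and the Ccl17 cells held 174 of the 184 WTKL UMIs of C1qa. In the Vcan-only cells C1qa had a log2 ratio of 0.49 (-1.25 to 2.10), and H2-Eb1, 2478 and 1409 CPM over all gated cells, had a ratio of the other sign, 1.06. Ratios were also taken in Lyz2 cells over the Saa3, Cfb, Slc7a2 and Fstl1 limit, other Lyz2 cells without Vcan or Ccl17, and T cells. In that order Gzmb had log2 ratios of -1.19, -1.48 and -1.41, and Gzma -0.25, -2.43 and -1.11. C1qa had -0.35, -1.11 and -1.17. S100a8 had 0.17, 0.68 and -0.12, and S100a9 -0.20, 0.81 and -0.28.

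Gngt2, Cdkn2d and Ccl6 were spread over more cells. Gngt2, a G protein subunit, was 375 CPM in WTKL (32 of 41 cells) and 146 CPM in LYZKL (9 of 15), a log2 ratio of -1.36 (-2.04 to -0.73). The cell cycle inhibitor Cdkn2d was 259 CPM (33 of 41) and 104 CPM (6 of 15), and the chemokine Ccl6 was 646 CPM (39 of 41) and 348 CPM (11 of 15), but with the limit on Saa3, Cfb, Slc7a2 and Fstl1 at 10 UMIs the log2 ratio of Ccl6 was 0.14. The CC chemokines had 5 of 8 measured members lower by 1.5-fold or more and 2 higher, where 17.7% of all measured genes were lower and 19.3% higher, with a median of -0.78, and of -0.11 in cells without Cd3e. The cell cycle list had 12 of 12 measured members lower, with a median of -1.07. That median was 0.09 in cells without Cd3e, and the fullest WTKL cell held 25.6% of the list's UMIs.

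The Vcan-only cells were compared alone because the Ccl17 cells were 14.6% of the WTKL and 6.67% of the LYZKL gated cells. Of 5626 measured genes 20.6% were higher and 18.1% lower in LYZKL by 1.5-fold or more (5.39% and 3.71% with the interval clear of 1). Of 25 measured interferon gamma genes 21 were higher, all of them by 1.5-fold or more, with a median of 1.62. The class II genes, whose median was 0.03 over all gated cells, had 10 of 10 measured members higher in the Vcan-only cells of LYZKL, 6 by 1.5-fold or more, with a median of 0.70. The 4 fullest of these LYZKL cells, at 22096 to 35995 CPM of class II, include 2 with Cd3e, and H2-Eb1 had a log2 ratio of 0.073 in Vcan cells without Ccl17 or Cd3e. Per cell, though, class II levels overlapped throughout, with medians of 4051 and 4674 CPM of the cell and upper quartiles of 5204 and 18002. Of 16 class I genes 14 were higher, with a median of 0.49. Per cell, though, class I had medians of 5892 CPM of the cell in WTKL and 5756 in LYZKL. Only 6 of 14 LYZKL cells lay above the WTKL median. Over all gated LYZKL cells the class I median was 11606 with Cd3e and 5379 without. The 11 classical monocyte markers had a median of 0.04, with 1 higher and 1 lower by 1.5-fold or more. Ccr2 was 670 and 750 CPM over all gated cells (log2 0.16, -0.15 to 0.47), and F13a1 372 and 586 CPM.

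Tmem173 itself was rare. It had 11 UMIs in 9 of 41 WTKL cells and 12 UMIs in 6 of 15 LYZKL cells, 24.1 and 73.2 CPM, a log2 ratio of 1.60 (0.30 to 2.93), so the gated cells of LYZKL did not have the lower level, at these few UMIs. The LYZKL cells of 9327 and 19892 total UMIs held 4 Tmem173 UMIs each, and the deeper of them also carried Cd3e. In the Saa3 or Cfb cells of the same libraries, with 309 and 300 UMIs, Tmem173 was 43.4 and 31.8 CPM, a log2 ratio of -0.45 (-0.68 to -0.21). In the T cells it was 28.7 and 46.8 CPM, a log2 ratio of 0.71 (0.58 to 0.83). A 3′ count need not fall when exons upstream are removed, and where the floxed exons lie is not given in the sources used here, so this checks neither the deletion nor the label. Of 15 measured genes of the STING and DNA-sensing list 8 were higher by 1.5-fold or more, beside 19.3% of all measured genes, with a median of 0.61, and of 0.09 in cells without Cd3e. Cd38, an enzyme that consumes NAD, was 46.0 CPM in WTKL (12 of 41 cells) and 42.7 CPM in LYZKL (5 of 15), a log2 ratio of -0.11 (-1.58 to 1.18), an interval that holds large differences in either direction. Il10 and Arg1 had at most 6 UMIs in a library.

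**Figure D5:**
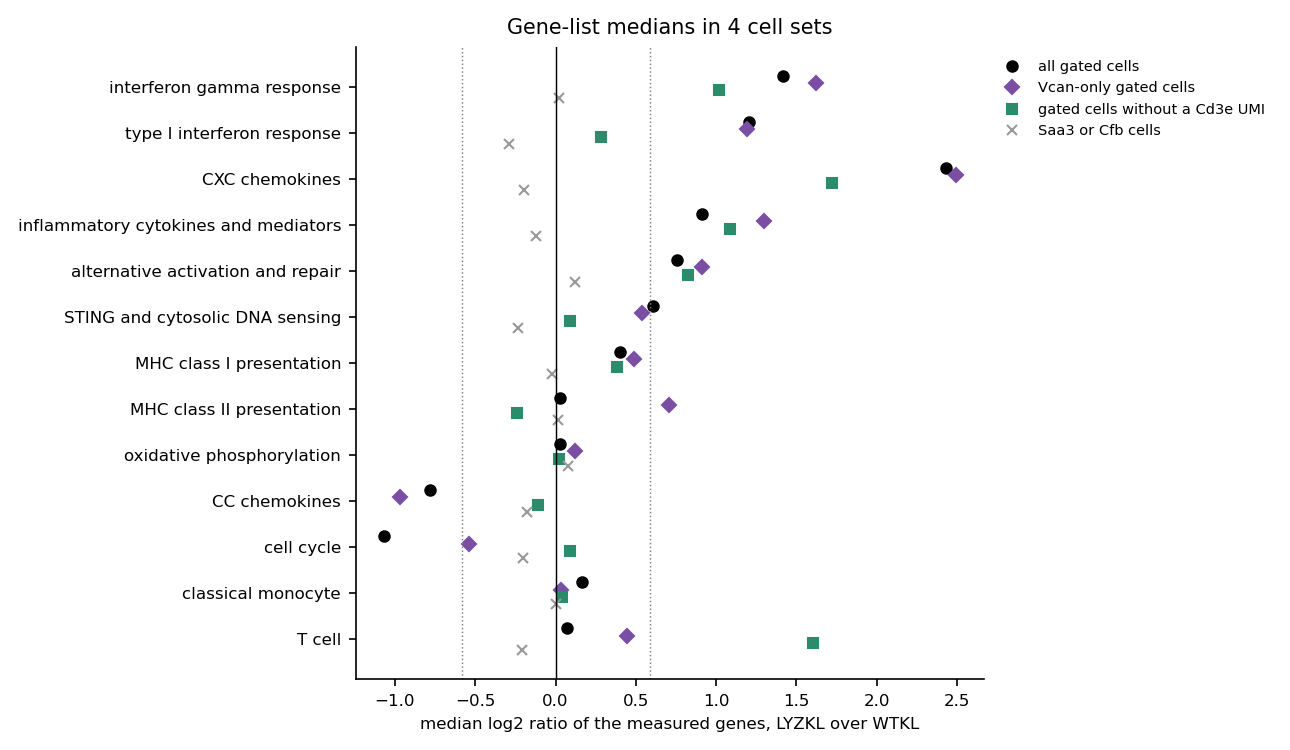
Median log2 ratio, LYZKL over WTKL, of the measured members of 13 gene lists (horizontal axis) in all gated cells, Vcan-only gated cells, gated cells without a Cd3e UMI, and the Saa3 or Cfb cells. Dotted lines mark 1.5-fold. The interferon gamma list lies at 1.41, 1.62, 1.02 and 0.02 in that order.

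The larger myeloid population of the same libraries, with over 2 UMIs of Saa3, Cfb, Slc7a2 and Fstl1, held 451 WTKL and 691 LYZKL cells. The gated cells had more of the classical monocyte transcripts than these, with median log2 ratios of 1.22 in WTKL and 2.44 in LYZKL over 11 measured markers, and 11.6% of 5192 genes measured in both libraries were at least 1.5-fold higher and 7.49% lower in both. Ifitm6 was 497 and 397 CPM in the gated cells against 71.7 and 51.7 CPM. Cbfa2t3, Krt80, Arhgef37, Id3, the receptor Cd244a and the protease Prtn3 were also higher. Nos2, the inducible nitric oxide synthase, was 0 CPM in the gated WTKL cells and 12.2 CPM in the gated LYZKL cells, where the Saa3 or Cfb cells had 659 and 680 CPM, and Inhba, Clmp, Il1a, Ly6i, Sdc1, Cxcl3 and the cathepsin Ctsk were lower with it. Since a limit on 4 genes of that population chose the gated cells, these differences describe the choice.

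The higher interferon gamma list of LYZKL was not seen in the Saa3 or Cfb cells. There the list had a median of 0.02 with none of 29 members higher by 1.5-fold, and the type I list a median of -0.29. Of 5541 measured genes, 1.12% were higher and 1.12% lower in LYZKL by 1.5-fold or more. These cells summed to 7117173 UMIs in WTKL and 9419202 in LYZKL, against 456471 and 163919 in the gated cells. Counting error passes 1.5-fold less often at the larger sums, so these shares cannot be set beside those of the gated cells. In the Saa3 or Cfb cells Cxcl10 was 756 and 463 CPM, and Il1b 2683 and 2164 CPM, the opposite order to the gated cells. In the other Lyz2 cells without Vcan or Ccl17, Il1b was 2143 and 3702 CPM, the same order as in the gated cells. Cxcl10 was 489 and 428 CPM in those. For Gbp2 and Cxcl9 the Saa3 or Cfb cells had 493 and 417 CPM in LYZKL. All gated cells had 622 and 641 CPM there, and those without Cd3e 83.2 and 20.8 CPM. A Cd3e UMI was found in 259 of 451 Saa3 or Cfb cells of WTKL (57.4%) and 326 of 691 of LYZKL (47.2%). Their values were not split by Cd3e. Cells over the limit on Ear2 and Fabp4 but within that on Saa3, Cfb, Slc7a2 and Fstl1 were 24 and 10. Their interferon gamma list summed to 2379 CPM in WTKL and 6569 in LYZKL, beside 2162 and 7247 in the gated cells. It summed to 7046 and 6856 CPM in the Saa3 or Cfb cells. The other Lyz2 cells without Vcan or Ccl17 had 3639 and 4359 CPM. Whether the contrast between the arms differs between these populations was not tested, as each arm is 1 library. In the T cells the medians of the interferon gamma and type I lists were 0.22 and -0.03, and Cxcl10, a measure there of free RNA as well, was 76.2 and 88.7 CPM.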

How the data were processed

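The deposited matrices give unnormalised UMI counts by gene and barcode, made by the authors with Cell Ranger 6.1.2 and mm10 per the submitters' processing notes. The deposited gene and barcode files are labels. The members, gene lists, marker lists and tests were chosen with earlier results of these data known. No doublet caller was run; alternatives removed cells with T cell transcripts or high UMIs. UMIs of the gated cells were summed per library and scaled to CPM (Python 3.11.15, numpy 2.4.6, scipy 1.17.1, pandas 2.3.3). Intervals are exact Poisson for counts, exact conditional binomial for ratios, Clopper-Pearson for shares and Katz for ratios of shares, at 95%. A gene was measured at a mean of 20 CPM or more over the 2 libraries, and a library at 0 was set to 3 counts in a ratio. Named between the libraries were the 12 highest and 12 lowest genes by the interval bound nearest to 1, among those whose higher library reached 50 CPM, with 100 UMIs over both and a ratio of 1.5, without receptor and immunoglobulin segments, mitochondrially coded, ribosomal protein, sex-linked, unnamed and selection genes. Between Ccl17 and Vcan-only cells 12 each way, and against other cells 8 each way, were ranked by the smaller of the 2 libraries' ratios; 1 gene of each of these rankings is not reported here. Examples from lists had 30 CPM or more, and the selection genes and a preset set of monocyte, dendritic cell, STING and CD38 genes were always eligible. On data simulated for the comparison of the libraries over 5644 genes, the direction of planted 1.5-, 2- and 4-fold changes was recovered for 94.1%, 98.4% and 100% of genes, and 23.5%, 54.0% and 92.8% had an interval clear of 1. Of the unchanged genes, 2.98% were called with an interval clear of 1. The simulated counts were Poisson draws from the pooled profile of the gated cells, without spread between cells. Changes were planted only in genes of at least 50 CPM. These rates therefore do not carry over to genes whose UMIs lie in few cells. Alternatives included edgeR 4.0.16 TMM factors and thinning to 3000 UMIs.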

Additional observations from a re-analysis of the deposited data

How the results depend on the processing

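The log2 ratio of the share of kept cells was -1.61 and stayed within its counting interval under every alternative run for it, from -1.97 with Saa3, Cfb, Slc7a2, Fstl1, Ear2 and Fabp4 all at 0 to -1.11 with at least 2 Vcan or Ccl17 UMIs. The alternative limits on detected genes and mitochondrially coded UMIs selected the same 41 and 15 cells, so they could hardly move the ratio. No alternative left out the limit on Saa3, Cfb, Slc7a2 and Fstl1. Before that limit, 167 of 12003 WTKL and 123 of 13451 LYZKL kept cells had passed, a ratio of shares nearer to 1. The alternatives therefore do not show how far the ratio depends on having this limit. The 1096 genes higher and 1006 lower by 1.5-fold or more became 1924 and 1823 with a minimum of 5 CPM, 483 and 363 with 50 CPM, and 2212 and 1771 with no minimum, which change how many genes are tested. With at most 10 UMIs of Saa3, Cfb, Slc7a2 and Fstl1 they were 924 and 550. TMM factors gave 930 and 1192, and moved all log2 ratios by -0.08.

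Of 32 other results (list medians and named genes), 21 kept their sign under all alternatives run for them. Gzma, with 6 and 0 UMIs without Cd3e cells, was at 0 there. The cell cycle median changed sign without Cd3e cells (0.089), with at most 2 UMIs of 6 T cell genes (0.31), without cells above the 95th percentile of UMIs (0.27), and in Vcan cells without Ccl17 or Cd3e (0.081). Gzmb became 0.60 without Cd3e cells and 0.82 with at most 2 T cell UMIs, and Ccl5 0.080 and 0.30, and 0.0070 in Vcan cells without Ccl17 or Cd3e. Ctla4 was -0.18 with at most 2 T cell UMIs. In Vcan-only cells C1qa was 0.49 and H2-Eb1 1.06, and H2-Eb1 was 0.073 when Cd3e cells were left out too. S100a8 was 2.97 without the 3 cells named in the text, and Ccl6 0.14 with the limit of 10 UMIs.

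Thinning every cell to 3000 UMIs before the selection chose 53 and 24 cells. There the interferon gamma median was 0.32, with 11 of 25 measured members past 1.5-fold, Cxcl10 was 0.51, Il1b 0.31, Gbp2 -0.68, Sdc4 -0.13 and Ctla4 -0.32. With the limit of 10 UMIs the interferon gamma median was 0.71 and Cxcl10 0.62. Without the fullest interferon gamma cell of each library it was 1.24. The cause of these shifts was not tested. Of the alternatives, 4 (the S100a8 cells, Vcan cells without Ccl17 or Cd3e, the limit of 10 UMIs and the fullest cell) were added after the data were seen. Gene ratios were not computed for Ccl17 cells alone (6 and 1 cells) or with all 6 limit genes at 0 (14 and 4 cells). No paired analysis was possible because each group has 1 library.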

Other observations

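S100a8 and S100a9, whose products form a pair, were uneven in the LYZKL gated cells. They had 214 and 6 UMIs there, in 13 and 5 of 15 cells, against 1296 and 839 UMIs in WTKL. In the Saa3 or Cfb cells of LYZKL the counts were 12516 and 2967, and in the other Lyz2 cells without Vcan or Ccl17 they were 5487 and 4503.

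Immunoglobulin and plasma cell transcripts were also uneven between the libraries. Igkc had 77 UMIs in 31 of 41 WTKL gated cells and 6 UMIs in 5 of 15 LYZKL gated cells, and the plasma cell list summed to 405 and 110 CPM. In the T cells of the same libraries that list summed to 5518 and 3156 CPM.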
